A study of Mus musculus with 4 samples.

Results

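The genes described here are 35 enzymes and complex subunits that write, erase or read marks on chromatin, in regulatory T cells (Tregs) taken from omental tumors and from spleen. They are a fixed list of symbols, 35 of the 24421 genes in the count tables, in 6 classes: Polycomb and its demethylases, DNA methylation, histone deacetylases, histone acetyltransferases, enzymes of histone H3 lysine methylation outside Polycomb, and chromatin remodellers. All 35 were found by symbol, and 34 had enough reads to be tested, the exception being Hdac11. The Tregs carried the strain label B6 Foxp3-DTR/GFP, in which Foxp3 drives a green reporter and the diphtheria toxin receptor. They belonged to tumor-free CD45.1- mice surgically joined for 14 days to CD45.1+ mice, which had received 3000000 EG7.1.15 tumor cells intraperitoneally. Both groups of libraries were partner-derived cells sorted from the tumor-bearing animal at day 14 after tumor injection, as live cells without CD45.1 or B220 that carried CD45.2, CD4, CD25 and the Foxp3 reporter. The omental tumor group and the spleen group each held 2 libraries, from mouse 2 and mouse 3, so each animal gave both tissues. The question was how the chromatin machinery of Tregs that had homed to omental tumors differed in transcript level from that of Tregs in the spleen of the same animals. No group without a tumor was analysed here, and nothing in the labels says whether cells of several mice were pooled.

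Polycomb complexes place a repressive methyl mark on histone H3 through Ezh2 or its relative Ezh1, with Suz12 and Eed as obligate partners, and the demethylases Kdm6a and Kdm6b take it off. DNA methyltransferases add methyl groups to CpG dinucleotides and Tet enzymes oxidise them, which in Tregs bears on the Foxp3 locus, where a demethylated enhancer keeps the gene on through division. Acetyltransferases such as Ep300 open chromatin and also acetylate the Foxp3 protein, and deacetylases reverse this. Ezh2 in activated Tregs, Dnmt1, and several Hdac genes are known from mouse deletions to affect Treg stability or suppressive function.

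The libraries differed in depth and in what else they held. Gene counts totalled 6660230 and 3764508 in omental tumor, mouse 2 first, against 9989005 and 13598631 in spleen, so low levels carry more counting error in omental tumor. Levels are in CPM, counts scaled to 1000000 per library on totals adjusted by TMM factors, and 3 counts were worth 0.39 to 0.76 CPM in omental tumor but 0.27 to 0.29 CPM in spleen. Foxp3 stood at 81.1 and 84.0 CPM in omental tumor, against 113 and 144 CPM in spleen. Il2ra, Cd4 and Ptprc were present in all 4 libraries but also lower in omental tumor in each mouse, none of them called. Ctla4, another Treg gene, went the other way without overlap and was not called. It had 1235 and 1285 CPM in omental tumor, against 389 and 762 CPM in spleen. The Treg gene Ikzf2 overlapped, at 379 and 312 CPM in omental tumor, against 321 and 479 CPM in spleen. Cd4 had 375 and 114 CPM in omental tumor, against 566 and 1004 CPM in spleen, log2 fold change -1.68 (SE 0.87). Ptprc had 2070 and 922 CPM in omental tumor, against 2587 and 4020 CPM in spleen. Il2ra had 688 and 318 CPM in omental tumor, against 697 and 883 CPM in spleen. All 16 tested T lineage markers had negative log2 fold changes, median -1.19, with 0 past the adjusted threshold of edgeR's test and 1 at an unadjusted p below 0.05. Their summed level was 5085 and 4977 CPM in omental tumor, against 7710 and 11816 CPM in spleen. Of 8 tested neutrophil markers 4 were called higher in omental tumor, where 1.16% of all genes tested were. The list summed to 150 and 1453 CPM in omental tumor compared with 96.0 and 73.5 CPM in spleen. Among the called, S100a8 and S100a9 were high in the mouse 3 omental library alone, at 410 and 474 CPM. In the mouse 2 omental library they had 0.131 and 1.57 CPM, below the 6.24 and 9.07 CPM in spleen of that mouse. Macrophage and monocyte markers had 2 of 13 called higher, both of them lysozyme genes. The list summed to 517 and 679 CPM in omental tumor, against 233 and 461 CPM in spleen. The called gene Lyz2 had the highest level of the list in both omental libraries, so these sums lean on it. The signs were mixed, with 7 positive and 6 negative log2 fold changes and a median of 0.23. At an unadjusted p below 0.05 in edgeR's test, 5 of the 13 were higher and 1 was lower. Fibroblast and mesothelial markers had 1 of 6 called higher and summed to 188 and 18.7 CPM in omental tumor, against 20.6 and 8.21 CPM in spleen, so that signal was in the mouse 2 omental library. Of 2 tested adipocyte markers 1 was called higher, and all 8 dendritic markers had positive log2 fold changes with 0 called and 1 at an unadjusted p below 0.05 in edgeR's test. The 12 dissociation response genes, of which 3 were called higher, summed to 1714 and 2378 CPM in omental tumor, against 1004 and 230 CPM in spleen. Junb, not called, had the highest level of that list in all 4 libraries, so its sums lean on this gene. Of the 12, 10 had positive and 2 negative log2 fold changes, and in 5 the mice had opposite signs. The part of these other signals in the levels below was not tested, and the mouse 3 omental library, where the neutrophil sum is highest and the depth lowest, is left out of the main counts in turn. In such bulk libraries fewer cells of a type and less RNA per cell cannot be told apart.

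None of the 34 tested members passed an adjusted p of 0.05 between omental tumor and spleen in edgeR's quasi-likelihood test, against 1.43% of all 16322 genes tested, 1.16% higher and 0.263% lower. None passed in DESeq2, where 358 genes did and 2848 had no adjusted p. None passed in limma-voom, whose count over all genes is not given here, or with the mouse as a block, where 1.61% of all genes did. In the edgeR test 5 members, or 14.7%, had an unadjusted p below 0.05, against 10.2% of all genes: Kdm6b was the 1 with a higher level in omental tumor (4.97% of all genes), and Ezh1, Tet3, Hdac7 and Hdac10 were the 4 with a lower level (5.28% of all genes). DESeq2 gave 6 such members, against 12.6% of all genes, and limma-voom 7, against 10.7%. With 1 library left out, edgeR gave 0 without the mouse 3 omental library, where 5.98% of all genes had such a p, and 10 without the mouse 2 omental library, where 13.6% did. The smallest absolute log2 fold change that passed the adjusted threshold for any gene was 2.64, and the members' values lay between -2.13 and 2.09, each with an SE of 0.73 to 0.99. No difference as small as the members' was called for any gene in that test.

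The members leaned to the spleen side as a group. Their log2 fold changes, omental tumor over spleen, were negative for 27 and positive for 7, or 79.4% negative against 46.1% of all genes tested. The median was -0.84 for the members and 0.13 for all genes. On TMM scaling, in 20 members, 58.8%, both omental tumor values lay below both spleen values, and in 2, Suz12 and Kdm6b, both lay above, while the background over all genes was 25.4% and 16.4%. These counts moved with the scaling of the libraries: on gene totals alone they were 16 below and 3 above, where all genes gave 19% and 21.6%. On upper-quartile factors they were 12 below and 5 above with 22 negative, where all genes gave 14.9%, 30.5% and 31%. The distance of the members' median from that of all genes moved little, from -0.98 to -0.96 over the 4 scalings. Without the mouse 3 omental library, 28 members had negative values and the distance was -0.76, and without the mouse 2 spleen library 23 had negative values and the distance was -1.24.

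**Figure D1:**
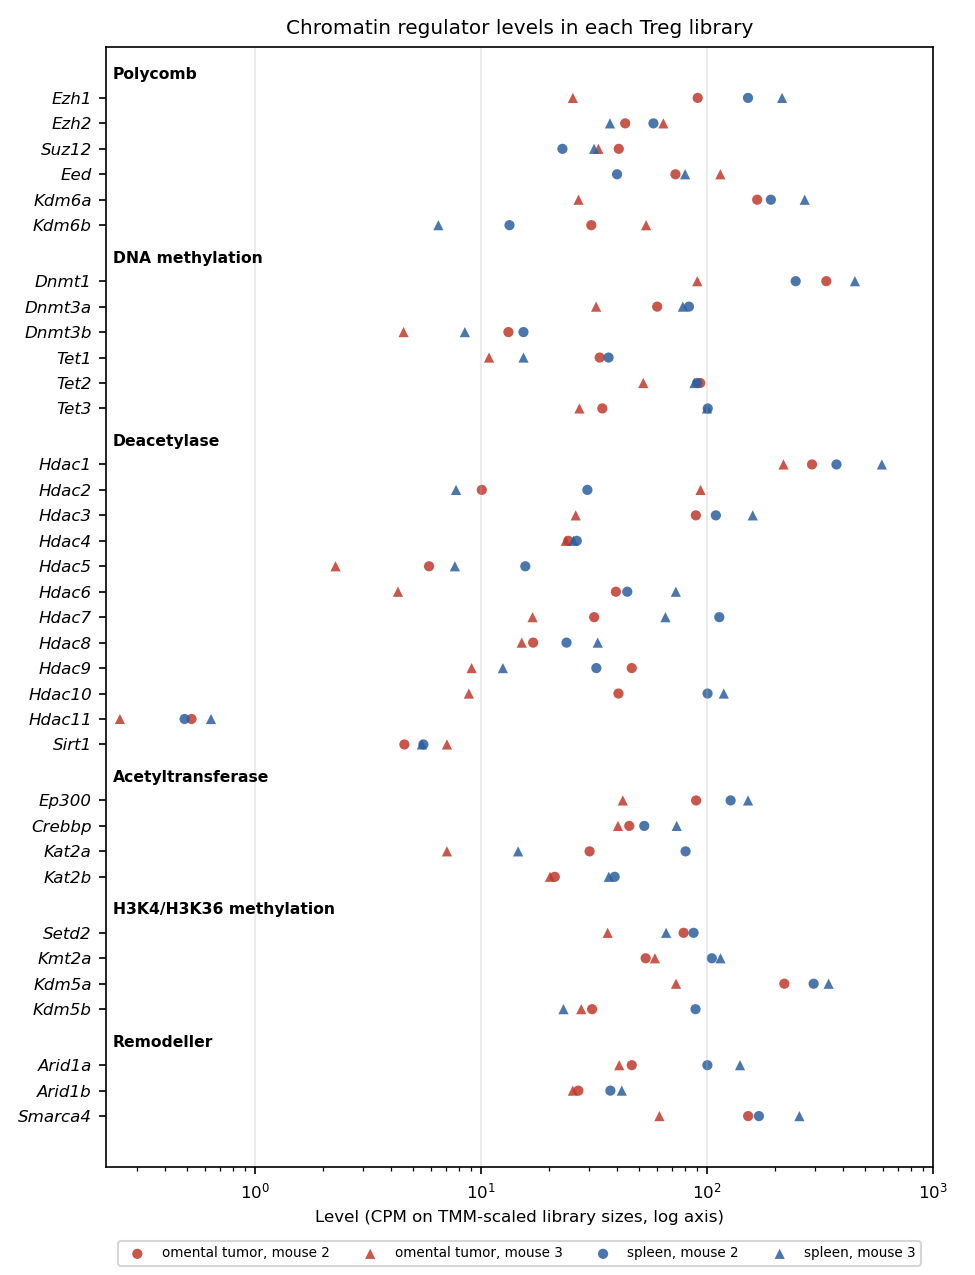
Level of each of the 35 members in the 4 libraries, in CPM on TMM-scaled library sizes, log axis, grouped by class. Omental tumor is red and spleen blue, with circles for mouse 2 and triangles for mouse 3. Both red points lie left of both blue points in 20 tested members (12 on upper-quartile factors), and right of both in Suz12 and Kdm6b.

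Per kilobase of exon, Hdac1 was the most abundant member in each library, at 84.6 and 63.3 CPM per kb in omental tumor, against 109 and 172 CPM per kb in spleen. By tissue mean Dnmt1 came next in both, at 45.7 and 12.3 CPM per kb in omental tumor, against 33.5 and 61.2 CPM per kb in spleen. The order after that differed: Eed followed in omental tumor at 18.9 and 29.9 CPM per kb, while in spleen, at 10.4 and 20.9 CPM per kb, it stood below Hdac3, Smarca4, Hdac10, Kdm6a, Ezh1 and Kdm5a. The lowest over the 4 libraries were Hdac11 at 0.124, Hdac5 at 0.898 and Sirt1 at 1.06 CPM per kb. Hdac11 had 4 and 1 counts in omental tumor, against 5 and 7 in spleen. Eed, Dnmt3a, Hdac5, Hdac7 and Kdm5a share exon bases with another annotated gene, at most 6.82% of their exon length (Eed), and the library kits do not mark strand, so those reads cannot be told apart.

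The Polycomb class split within itself. Kdm6b (chromosome 11, 69398508 to 69420367), which removes the Polycomb mark and is induced by inflammatory signals in myeloid cells, had 30.7 and 53.7 CPM in omental tumor of mouse 2 and mouse 3, against 13.4 and 6.47 CPM in spleen. Both omental values lay above both spleen values, and the omental library of mouse 3, which also had the largest sum of neutrophil transcripts, was the highest. The part of that signal in the value was not tested. The means were 42.2 ± 16.3 CPM in omental tumor, against 9.92 ± 4.87 CPM in spleen (SD, n = 2 each). The log2 fold change was 2.09 (SE 0.81, edgeR adjusted p = 0.267), the most positive of the 34, and DESeq2 gave the lowest adjusted p of any member under any alternative, 0.0631, for this gene. The direction was the same within each animal, at a log2 ratio of 1.19 in mouse 2 and of 3.01 in mouse 3, and the fitted value was 1.55 without the mouse 3 omental library.

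Kdm6a (chromosome X, 18160862 to 18279936), the constitutively expressed demethylase of the same mark, stood the other way, at 167 and 27.0 CPM in omental tumor compared with 192 and 271 CPM in spleen. The mouse 2 omental value was close to its spleen partner and the mouse 3 value far below, with log2 ratios of -0.20 and -3.31. The fitted log2 fold change was -1.25 (SE 0.76, edgeR adjusted p = 0.589), and -0.56 without the mouse 3 omental library.

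Ezh1 (chromosome 11, 101191115 to 101226463), the methyltransferase found mainly in resting cells, had 90.9 and 25.5 CPM in omental tumor, against 152 and 215 CPM in spleen. The groups did not overlap, and the log2 fold change was -1.65 (SE 0.76, edgeR adjusted p = 0.421), with -0.74 in mouse 2 and -3.06 in mouse 3 and a fitted value of -1.10 without the mouse 3 omental library. Ezh2 (chromosome 6, 47530274 to 47595270), its relative in dividing and activated cells, had 43.4 and 64.1 CPM in omental tumor, against 57.9 and 37.2 CPM in spleen. Here the groups overlapped, with a log2 fold change of 0.17 (SE 0.74) and opposite signs in the 2 mice. The core subunits had positive log2 fold changes: Suz12 0.44 (SE 0.76), at 40.7 and 33.1 CPM in omental tumor compared with 22.9 and 31.6 CPM in spleen, and Eed 0.64 (SE 0.73), at 72.5 and 115 CPM in omental tumor, against 39.99 and 79.97 CPM in spleen. Both were on the omental side in each mouse, though the Suz12 ratio in mouse 3 was 0.06. The Polycomb class was the only class of the 6 with a positive median, 0.31, and its sum of levels was 445 and 318 CPM in omental tumor, against 478 and 641 CPM in spleen. That positive median rested on the mouse 3 omental library, without which it was -0.017.

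**Figure D2:**
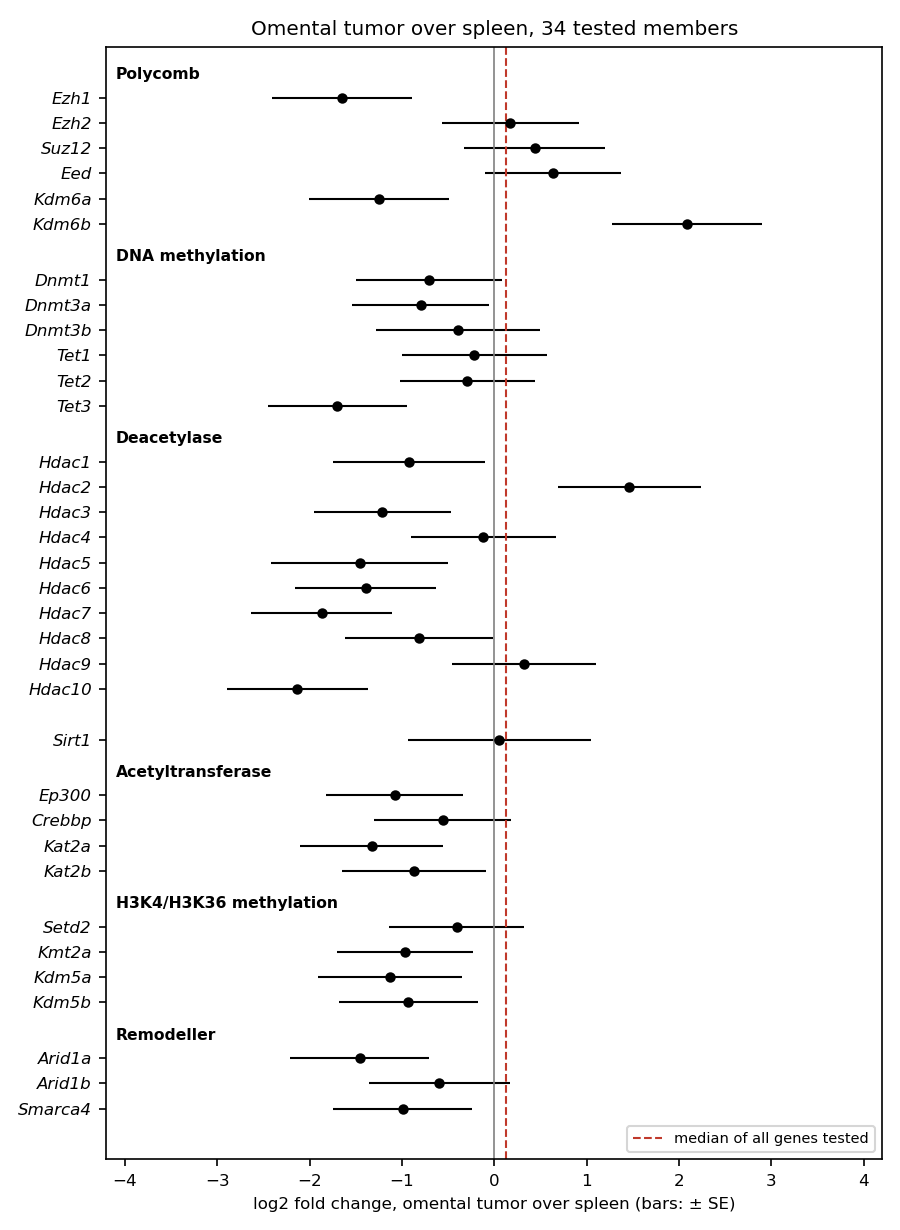
Fitted log2 fold change, omental tumor over spleen, of the 34 tested members with bars of ± 1 SE from edgeR's quasi-likelihood fit. The dashed line marks the median of all genes tested, 0.13. Kdm6b and Hdac2 stand apart on the right, while 27 of the 34 points lie left of 0 (22 on upper-quartile factors).

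The DNA methylation genes all had negative fitted values, median -0.55, though 3 of them, Dnmt3b, Tet1 and Tet2, turned positive on upper-quartile factors. On TMM scaling 4 of the 6 had overlapping groups. The other 33.3% had both omental values below both spleen values, against 25.4% of all genes. Tet3 (chromosome 6, 83362373 to 83457208), which oxidises methylated cytosine, had 34.4 and 27.3 CPM in omental tumor compared with 101 and 99.9 CPM in spleen. The omental values were close to each other, as were the spleen values, with means of 30.8 ± 5.06 CPM in omental tumor, against 100.3 ± 0.565 CPM in spleen (SD, n = 2 each). Its log2 fold change was -1.70 (SE 0.75, edgeR adjusted p = 0.382), and both mice gave like values, -1.54 in mouse 2 and -1.87 in mouse 3. Leaving out any 1 library kept it between -1.89 and -1.48. The SE comes from a spread shared by all genes and so takes no account of how closely these 4 values agree.

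Tet2 is another Tet enzyme known to act on the Foxp3 locus. It stood at 93.3 and 52.2 CPM in omental tumor, against 90.4 and 88.0 CPM in spleen. The groups overlapped, and the log2 fold change of -0.29 (SE 0.73) turned to 0.18 on upper-quartile factors. Tet1 had 33.5 and 10.8 CPM in omental tumor compared with 36.7 and 15.4 CPM in spleen, also overlapping, and its value of -0.22 turned positive on gene totals alone (0.015) and on upper-quartile factors (0.20). Dnmt1 (chromosome 9, 20907206 to 20959888), which copies methylation after replication, was the most abundant of the class per length. It had 337 and 90.6 CPM in omental tumor, against 247 and 451 CPM in spleen, log2 fold change -0.70 (SE 0.79), and the mice disagreed, with a log2 ratio of 0.45 in mouse 2 and of -2.31 in mouse 3. Of the enzymes that set new methylation, Dnmt3a had 60.2 and 32.3 CPM in omental tumor, against 83.2 and 78.2 CPM in spleen without overlap, log2 fold change -0.80 (SE 0.74). Dnmt3b was low, at 13.2 and 4.54 CPM in omental tumor compared with 15.4 and 8.48 CPM in spleen, with overlap.

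The start regions of members with an unadjusted p below 0.05 are printed for the 3 that have an entry in the RefSeq promoter table (GRCm38.p6), since CpG dinucleotides are what the DNA methylation genes act on. Each is the 250 bases before the first start that the table lists for the gene, 5′ to 3′ on the minus strand, with CpG dinucleotides in capitals. For Tet3 and Hdac7 this window lies inside the gene span given in the text, so it is not before the outermost start.
Tet3, chr6:83441679-83441928: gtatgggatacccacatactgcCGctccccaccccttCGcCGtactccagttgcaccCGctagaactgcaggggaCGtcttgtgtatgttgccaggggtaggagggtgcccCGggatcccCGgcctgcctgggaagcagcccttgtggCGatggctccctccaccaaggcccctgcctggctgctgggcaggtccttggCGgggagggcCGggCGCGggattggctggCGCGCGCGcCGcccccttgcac
Ezh1, chr11:101226464-101226713: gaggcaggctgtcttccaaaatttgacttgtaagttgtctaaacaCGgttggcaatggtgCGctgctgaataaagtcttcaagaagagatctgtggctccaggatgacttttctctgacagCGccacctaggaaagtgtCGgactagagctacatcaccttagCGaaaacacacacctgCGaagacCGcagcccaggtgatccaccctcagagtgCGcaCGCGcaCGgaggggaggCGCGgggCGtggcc
Hdac7, chr15:97831496-97831745: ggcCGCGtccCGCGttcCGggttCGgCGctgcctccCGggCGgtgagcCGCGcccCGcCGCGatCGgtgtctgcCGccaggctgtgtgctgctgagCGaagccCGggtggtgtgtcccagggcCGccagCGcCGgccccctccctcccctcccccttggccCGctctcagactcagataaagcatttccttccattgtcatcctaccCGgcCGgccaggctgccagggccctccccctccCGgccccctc
These hold 17, 14 and 25 CpG dinucleotides in that order. Of the 35 members 30 had an entry, and among the 29 of them that were tested 86.2% held 10 or more CpG in this window, with a median of 21, against 61.1% and a median of 13 among the 12369 tested genes with an entry. No methylation was measured in these libraries.

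The deacetylases were the largest class. On TMM scaling 8 of the 11 tested, 72.7%, had both omental values below both spleen values. The share was 25.4% over all genes and 44.4% among 27 other deacetylase complex genes. Among these 8 is Hdac4, whose log2 fold change was -0.12. Hdac10 (chromosome 15, 89123303 to 89128700), a class II enzyme known mainly as a polyamine deacetylase, had 40.6 and 8.83 CPM in omental tumor, against 101 and 119 CPM in spleen. Means were 24.7 ± 22.4 CPM in omental tumor, against 110 ± 12.8 CPM in spleen (SD, n = 2 each), and its log2 fold change of -2.13 (SE 0.77, edgeR adjusted p = 0.191) was the most negative among the members. The omental libraries differed widely from each other, with log2 ratios to the same animal's spleen of -1.30 in mouse 2 and -3.71 in mouse 3. Without the mouse 3 omental library the fitted value was -1.52. Hdac7 (chromosome 15, 97792661 to 97844502), a class IIa enzyme that is abundant in developing T cells, had 31.7 and 16.9 CPM in omental tumor compared with 113 and 65.5 CPM in spleen. Both mice gave nearly the same log2 ratio, -1.83 in mouse 2 and -1.94 in mouse 3, with a fitted value of -1.87 (SE 0.76, edgeR adjusted p = 0.31).

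Hdac6 (chromosome X, 7930116 to 7948047), a mainly cytoplasmic tubulin deacetylase, had 39.5 and 4.29 CPM in omental tumor, against 44.4 and 72.8 CPM in spleen. Nearly all of the difference came from mouse 3, where the omental value rests on 17 reads, with a log2 ratio of -0.17 in mouse 2 and of -4.01 in mouse 3, and the fitted value of -1.39 was -0.66 without the mouse 3 omental library. Hdac3, the catalytic subunit of the nuclear corepressor complexes, followed the same course at 89.2 and 26.2 CPM in omental tumor, against 109 and 159 CPM in spleen. Hdac1, of the Sin3, NuRD and CoREST complexes, had 292 and 218 CPM in omental tumor compared with 374 and 594 CPM in spleen, without overlap. Hdac2, its close relative in the same complexes, had 10.1 and 93.6 CPM in omental tumor, against 29.6 and 7.75 CPM in spleen. Its fitted log2 fold change of 1.46 (SE 0.77) rested on the mouse 3 libraries, with ratios of -1.53 in mouse 2 and 3.55 in mouse 3, and it became -0.96 without the mouse 3 omental library.

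Among the remaining deacetylases the levels were low or the differences small. Hdac5 had 5.89 and 2.27 CPM in omental tumor, against 15.7 and 7.66 CPM in spleen, and Hdac8 had 17.0 and 15.1 CPM in omental tumor compared with 23.9 and 32.8 CPM in spleen, neither with overlap. Hdac4 lay between 23.7 and 26.5 CPM in all 4 libraries, with a log2 fold change of -0.12 (SE 0.78) whose sign turned under 3 other scalings. Hdac9, whose deletion raises Treg suppressive function in mice, had 46.5 and 9.08 CPM in omental tumor, against 32.4 and 12.5 CPM in spleen, with opposite signs in the 2 mice. Sirt1, the NAD-dependent member, had 4.58 and 7.07 CPM in omental tumor, against 5.56 and 5.47 CPM in spleen.

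The 4 acetyltransferases all had negative fitted values, median -0.97. On TMM scaling 3 of them, 75%, had both omental values below both spleen values. The share was 25.4% over all genes and 53.8% among 26 other acetyltransferases and readers. Ep300, which acetylates histones and Foxp3, had 89.5 and 42.4 CPM in omental tumor compared with 127 and 152 CPM in spleen, log2 fold change -1.08 (SE 0.74). Crebbp, its paralog, had 45.3 and 40.4 CPM in omental tumor, against 52.8 and 73.4 CPM in spleen, log2 fold change -0.56 (SE 0.74). Kat2b, an enzyme of the SAGA and ATAC complexes, had 21.2 and 20.2 CPM in omental tumor, against 39.0 and 36.7 CPM in spleen. Its libraries agreed closely within each tissue, with means of 20.7 ± 0.715 CPM in omental tumor compared with 37.9 ± 1.598 CPM in spleen (SD, n = 2 each) and a log2 ratio of -0.87 in mouse 2 and of -0.86 in mouse 3. Kat2a, its alternative in those complexes, had 30.2 and 7.07 CPM in omental tumor, against 80.4 and 14.6 CPM in spleen. It was higher in mouse 2 than in mouse 3 in both tissues, and its fitted value of -1.32 turned to 0.30 without the mouse 2 spleen library.

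The enzymes of histone H3 methylation outside Polycomb were also all negative, median -0.95, though Setd2 was at 0.044 on upper-quartile factors and Kdm5b at 0.28 without the mouse 2 spleen library. Kmt2a, the activating methyltransferase of the MLL complex, had 53.5 and 58.8 CPM in omental tumor, against 105 and 115 CPM in spleen, and the mice gave the same log2 ratio to within 0.01, -0.97 and -0.96. Kdm5a, which removes that activating mark, had 219.8 and 72.9 CPM in omental tumor compared with 296 and 345 CPM in spleen, log2 fold change -1.13 (SE 0.78). Its relative Kdm5b had 31.0 and 27.8 CPM in omental tumor, against 88.9 and 23.2 CPM in spleen. The groups overlapped through the low mouse 3 spleen library. Setd2, which methylates histone H3 behind elongating polymerase, had 78.8 and 36.3 CPM in omental tumor, against 87.2 and 65.9 CPM in spleen, log2 fold change -0.41 (SE 0.73).

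All 3 remodeller genes had both omental values below both spleen values on TMM scaling, median log2 fold change -0.99. The share with such an order was 25.4% over all genes and 46.3% among 41 other remodeller genes. Arid1a, the DNA-binding subunit of the canonical BAF complex, had 46.5 and 40.9 CPM in omental tumor compared with 100.4 and 139.98 CPM in spleen, with means of 43.7 ± 3.94 CPM in omental tumor, against 120.2 ± 28.0 CPM in spleen (SD, n = 2 each). Its log2 fold change was -1.46 (SE 0.75, edgeR adjusted p = 0.491), with -1.11 in mouse 2 and -1.77 in mouse 3. Arid1b, the alternative subunit in the same position, had 27.0 and 25.5 CPM in omental tumor, against 37.4 and 41.9 CPM in spleen, log2 fold change -0.60 (SE 0.76). Smarca4, the ATPase of the complex, had 152 and 61.6 CPM in omental tumor compared with 170 and 256 CPM in spleen. The difference was mostly in mouse 3, with a log2 ratio of -0.16 in mouse 2 and of -2.05 in mouse 3.

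The 2 animals agreed in direction for 27 members, 24 of them lower in omental tumor in both mice and 3, Suz12, Eed and Kdm6b, higher in both. Over all genes 31.7% were lower in both mice and 36.9% higher in both. The median log2 ratio of the members was -0.39 in mouse 2 and -0.99 in mouse 3. The omental library of mouse 3 lay below that of mouse 2 in 28 of the 34 tested members, against 11121 of all 16322 genes tested. It lay more than 2-fold below in 15 members, or 44.1%, against 37.7% of all genes. Over 2-fold differences between the 2 omental libraries occurred in 16 members, 47.1%, near the 50.5% of all genes, and between the 2 spleen libraries in 7, or 20.6%, against 36.8% of all genes. The mouse 3 omental library is also the shallowest and the one with 1453 CPM of neutrophil transcripts, and the part of either in its lower member values was not tested. Tet3, Hdac5, Hdac7, Kat2a, Kat2b, Kmt2a and Arid1a, chosen after their values were seen, are the members where each mouse alone gave a log2 ratio of -0.85 or lower and the 2 ratios were under 1 log2 unit apart. The share of all genes that meet these cut-offs is not given here, so the list is descriptive only. In it the groups overlapped for Kat2a, whose fitted value was 0.30 without the mouse 2 spleen library, and Hdac5 had 9 reads in the mouse 3 omental library.

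**Figure D3:**
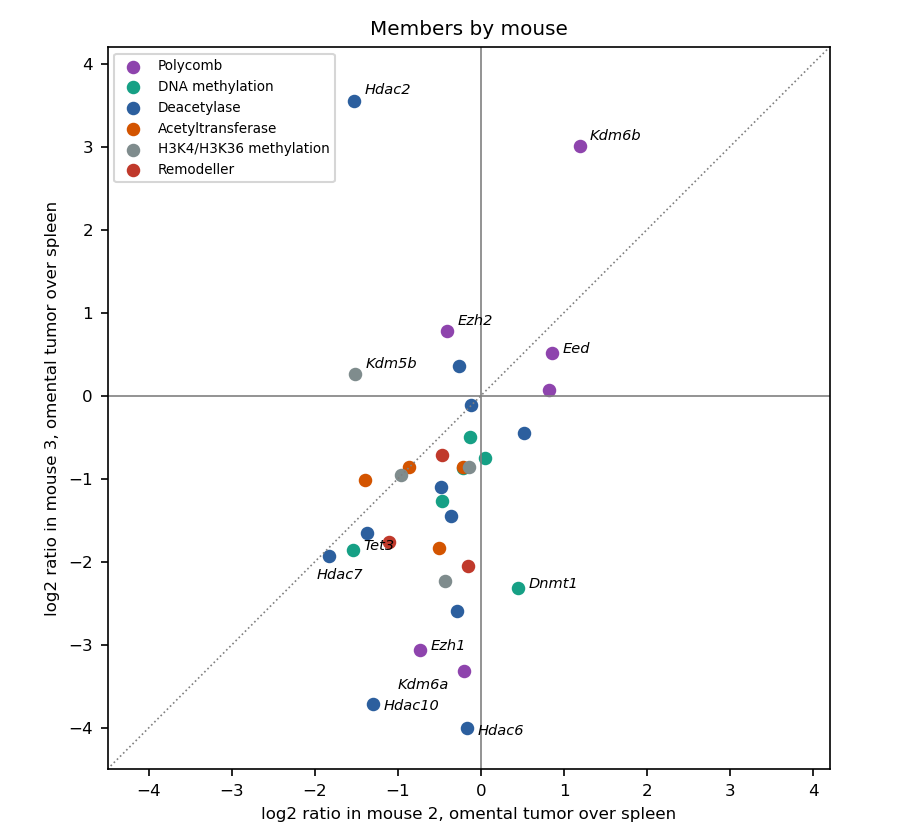
Log2 ratio of omental tumor over spleen within mouse 2 (horizontal axis) and within mouse 3 (vertical axis) for the 34 tested members, coloured by class, with the dotted line marking equal ratios. Most points lie at lower left below the line, and Tet3 and Hdac7 lie close to it. Hdac2 is at upper left, negative in mouse 2 and highest in mouse 3, and Kdm6b is highest in mouse 2.

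Ratios between related genes within a library do not depend on how libraries are scaled. These ratios are of raw counts and were computed for 7 pairs. The log2 count ratio of Kdm6b over Kdm6a was -2.44 and 0.99 in omental tumor of mouse 2 and mouse 3, against -3.84 and -5.39 in spleen, a difference of means of 3.89. That of Ezh2 over Ezh1 was -1.07 and 1.33 in omental tumor, against -1.39 and -2.53 in spleen. In both pairs the omental ratios lay above the spleen ratios, by a wide margin in mouse 3 and a narrower one in mouse 2. Tet2 over Tet3 was 1.44 and 0.94 in omental tumor, against -0.16 and -0.18 in spleen, so Tet3 had more reads than Tet2 in spleen and fewer in omental tumor. Arid1b over Arid1a was -0.79 and -0.68 in omental tumor, against -1.43 and -1.74 in spleen. The ratios of Dnmt1 over Dnmt3a, Hdac2 over Hdac1 and Kat2b over Kat2a overlapped between tissues. With 2 libraries a tissue an exact permutation test cannot go below p = 0.33, so these ratios are given without a test. The share of other gene pairs that separate in this way is not given here, so the order of the ratios is descriptive only. The ratios compare the genes of a pair without saying which of them differed.

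**Figure D4:**
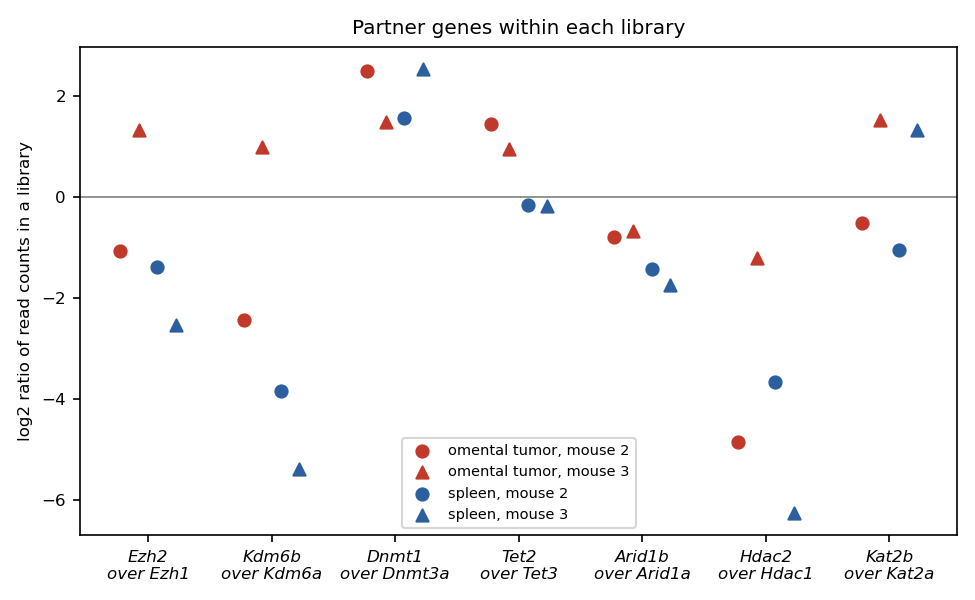
Log2 ratio of read counts between 2 related genes within each library, for 7 pairs. Omental tumor is red and drawn left of spleen in blue, with circles for mouse 2 and triangles for mouse 3. The omental points stand above the spleen points for Ezh2 over Ezh1, Kdm6b over Kdm6a, Tet2 over Tet3 and Arid1b over Arid1a. The share of other gene pairs with such an order is not given.

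Further chromatin genes outside the 35 also had mostly negative values, except in the list of other DNA methylation genes, and 1 passed the test. In 6 lists that extend the classes, 181 genes were tested, with 129 negative and 52 positive log2 fold changes and a median of -0.69. On TMM scaling 50.3% of them had both omental values below both spleen values and 11.6% both above, against 25.4% and 16.4% of all genes. The 1 gene called is 0.552% of them, below the 1.43% called over all genes. Cbx7 (chromosome 15, 79915804 to 79971143), the chromodomain subunit through which a Polycomb complex reads the mark, was that gene. It fell to 24.7 and 10.8 CPM in omental tumor, against 121 and 114 CPM in spleen, without overlap, log2 fold change -2.71 (SE 0.78, edgeR adjusted p = 0.0415). This call was kept under 3 of 14 alternatives, DESeq2, limma-voom and the robust fit, and lost under 11, among them each left-out library (adjusted p = 0.0958 to 0.63) and the fit with the mouse as a block (adjusted p = 0.0766). Its log2 fold change stayed between -3.45 and -2.25 in all 14.

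Among 31 other Polycomb genes 20 had negative values, median -0.75. An unadjusted p below 0.05 in edgeR's test was found for 1 higher and 6 lower genes, 22.6% together, against 10.2% of all genes. Phf1, a Polycomb-like accessory subunit, had 30.7 and 7.57 CPM in omental tumor, against 97.8 and 93.0 CPM in spleen, log2 fold change -2.29 (SE 0.77, edgeR adjusted p = 0.132). Cbx6, a relative of Cbx7, had 18.3 and 6.31 CPM in omental tumor, against 49.0 and 71.3 CPM in spleen, with -2.26 (SE 0.79). Neither overlapped between tissues. In 27 other deacetylase complex genes the median was -0.67 with 21 negative, in 26 acetyltransferases and readers -0.76 with 21 negative, in 39 histone methylation genes -0.85 with 30 negative, and in 41 remodeller genes -0.51 with 29 negative. None of these 4 lists held a gene past the adjusted threshold in edgeR's test, and 1, 2, 4 and 4 of their genes in that order, between 3.70% and 10.3% of each list, had an unadjusted p below 0.05, against 10.2% of all genes. The single largest value was positive: Sap30, a Sin3 complex subunit, at 1.31 and 10.8 CPM in omental tumor compared with 0.683 and 0.365 CPM in spleen, with 3.43 (SE 1.26, edgeR adjusted p = 0.214). The 17 other DNA methylation genes did not lean, median 0.04 with 9 positive and 8 negative, 0 called and 1 at an unadjusted p below 0.05, the methyl-CpG binding gene Mbd1 at -1.60 (SE 0.75).

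Transcripts of Ezh2, Dnmt1 and Suv39h2 follow division in many cells. The median of the cell cycle genes was -0.02 over 25 tested, 0 called in edgeR's test and 1 at an unadjusted p below 0.05, and the mice differed, with medians of 0.84 in mouse 2 and -0.53 in mouse 3. Summed levels were 4417 and 3452 CPM in omental tumor, against 2366 and 4753 CPM in spleen, with overlap. Suv39h2, a heterochromatin methyltransferase, had 4.58 and 15.1 CPM in omental tumor, against 2.54 and 0.821 CPM in spleen, log2 fold change 2.52 (SE 1.06, edgeR adjusted p = 0.338).

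**Figure D5:**
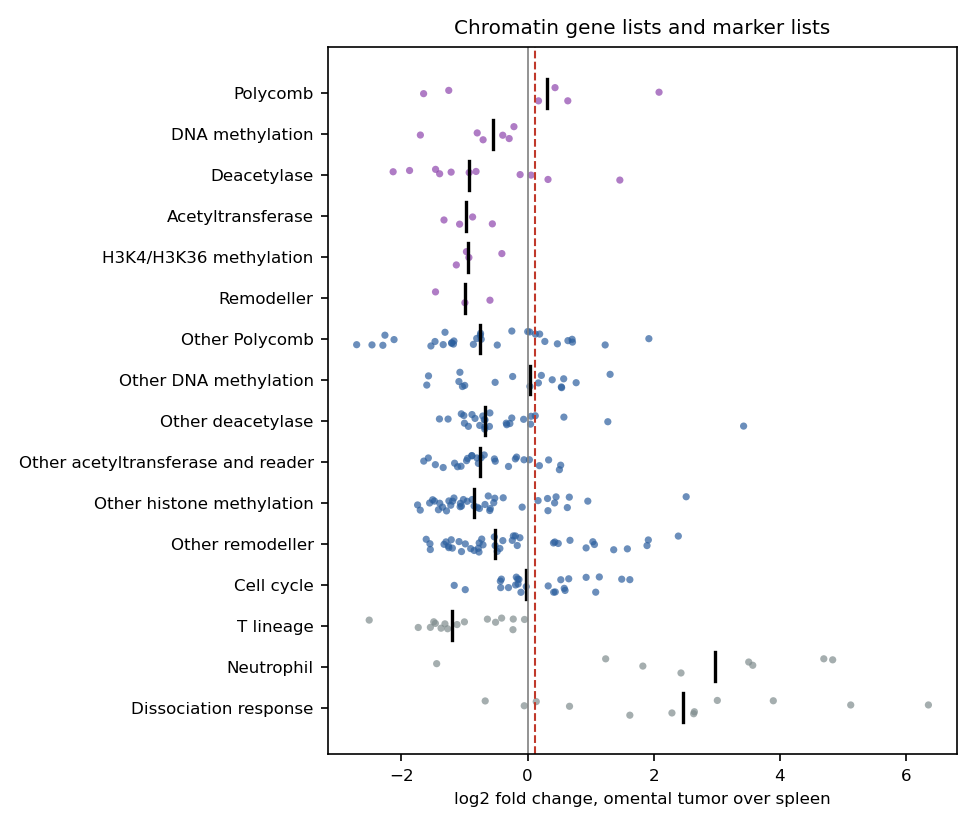
Fitted log2 fold change, omental tumor over spleen, of each tested gene in the 6 classes of members (purple), 7 related gene lists (blue) and 3 marker lists (grey), with black bars at list medians and a dashed line at the median of all genes tested. The medians of the chromatin lists lie left of the dashed line except that of the Polycomb members, T lineage genes lie farther left at a median of -1.19, and neutrophil and dissociation response genes lie right at 2.97 and 2.46.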

How the data were processed

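The deposited values were whole-number read counts per gene in 4 libraries, made per the labels' protocols from total RNA with SMART-seq v4 and Nextera XT. Trim Galore, TopHat2, SAMtools and HTSeq with build mm10 were used per the submitters' processing notes, and the sources used here do not give versions, annotation or strand setting. Genes held 17.1% and 22.2% of the entries in omental tumor and 24.9% and 46.0% in spleen. The rest, HTSeq's summary entries, stayed out of library sizes and tests. Among them are reads with several alignments, so genes with near-identical copies can be undercounted.

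The counts were analysed with edgeR 4.0.16 in R 4.3.3. filterByExpr with a minimum count of 10 left 16322 of 24421 genes, libraries were scaled by TMM factors on gene totals, and tissue was tested by quasi-likelihood (non-legacy glmQLFit, tissue alone in the model, 2 residual degrees of freedom), two-sided, with Benjamini-Hochberg adjustment at 0.05. The members' rule names gene totals as the scaling, and values on these alone are an alternative. SE is the absolute log2 fold change over the square root of F. The prior degrees of freedom were infinite, so SE and p rest on a spread shared by all genes, not on how far the mice differ in a given gene. Levels are mean ± SD, and ratios within a mouse use a prior count of 2. The 3-count floor covers counting error only, since reads without molecular identifiers are not independent molecules. The mouse numbers in the labels pair the tissues by animal, and deviations from tissue means correlated at 0.234 within a mouse. Exon lengths and overlaps came from GENCODE (GRCm38, the same build as mm10), gene positions and promoters from RefSeq (GRCm38.p6).

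The members and lists were chosen with earlier results of these data known. All members could be named, with the 4 smallest p-values and any called gene of each related list. The 2 most abundant genes of each marker list, the sort markers and the Treg genes Ctla4 and Ikzf2 could also be named. The alternatives were other scalings and filters, DESeq2 1.42.0, limma-voom 3.58.1, legacy and robust fits, an adjusted p of 0.01, the mouse as a block, and each library left out, where the single library left in a tissue borrows its spread from the remaining pair. The alternatives for Cbx7 and the members' counts without a library were chosen after seeing the data. The test was tested on simulated data.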

Additional observations from a re-analysis of the deposited data

How the results depend on the processing

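No member was called under any alternative, and 23 of the 34 tested members kept 1 sign in all of them. The count of genes called over the whole table was 233, and it was 28 on gene totals alone, 0 with no low-count filter, 0 with a minimum count of 50, 358 in DESeq2, 146 at an adjusted p of 0.01 and 60 to 273 with 1 library left out; the cause was not tested. At the 2 counts of 0, edgeR gave 6 and 3 members an unadjusted p below 0.05, against 8.24% and 10.6% of all genes. DESeq2 gave no adjusted p for 2848 genes. With the mouse as a replicate block, 263 genes and no member were called, 153 of them shared with the unblocked fit, and no member's call changed. Scaling shifted the median of all genes by 0.27 on gene totals, 0.12 on RLE and 0.49 on upper-quartile factors.

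The Polycomb median, 0.31, was 0.45 on RLE factors, 0.82 on upper-quartile factors, 0.56 on gene totals, 0.16 with no filter, 0.80 at a minimum count of 50, 0.45 in DESeq2 and -0.017 to 0.56 without 1 library. The acetyltransferase median, -0.97, was -0.49 on upper-quartile factors, -0.69 on gene totals, -0.52 at the minimum of 50 and -1.33 to -0.73 without 1 library. The H3 methylation median, -0.95, was -0.78 on RLE, -0.46 on upper-quartile factors, -0.73 on gene totals, -0.49 at the minimum of 50, -0.78 in DESeq2, -0.79 in limma-voom and -1.05 to -0.67 without 1 library. The DNA methylation median was -1.37 to -0.082 without 1 library. The median of all members was -0.35 on upper-quartile factors, -0.39 at the minimum of 50 and -1.29 to -0.63 without 1 library.

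Signs turned for Dnmt3b (0.034), Tet1 (0.20), Tet2 (0.18), Hdac4 (0.39) and Setd2 (0.044) on upper-quartile factors, for Tet1 (0.015) and Hdac4 (0.15) on gene totals, for Tet1 (0.12), Tet2 (0.14) and Hdac4 (0.36) at the minimum of 50, for Hdac4 on RLE (0.010) and in DESeq2 (0.011), and for Sirt1 with no filter (-0.087). With 1 library left out, signs turned for Ezh2 (-0.22 to 0.47), Dnmt3b (-1.40 to 0.065), Tet1 (-1.27 to 0.47), Hdac2 (-0.96 to 2.68), Hdac4 (-0.19 to 0.11), Hdac9 (-1.31 to 1.10), Sirt1 (-0.35 to 0.37), Kat2a (-2.75 to 0.30) and Kdm5b (-1.36 to 0.28). By the lowest count in any library, depth limits Hdac11 (1), Hdac5 (9), Hdac6 (17) and Dnmt3b (18) most.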
